A study of Mus musculus with 12 samples.

Results

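The averaged effect of FoxO deficiency is the difference between all 6 FoxO-deficient and all 6 wild-type arrays of the study, with the cell type as a blocking term, so that the effects in LSK cells and in myeloid progenitors count equally. All 12 arrays of the series entered it, 3 in each of 4 groups, and 45037 probe sets were tested. LSK cells are the Lin- Sca-1+ Kit+ cells of the bone marrow, the fraction that holds the hematopoietic stem cells, and myeloid progenitors are the more restricted cells that give rise to granulocytes, monocytes, red cells and platelets. All mice carried floxed alleles of FoxO1, FoxO3 and FoxO4. The FoxO-deficient groups also carried Mx-Cre and the wild-type groups lacked it, so an effect of the Cre transgene cannot be told apart from loss of the FoxO genes. The Mx promoter responds to interferon and is not limited to blood cells. The labels give neither the age of the mice nor the induction of Cre. Cells came from pooled mice, and the labels name triplicates without saying whether each was a separate pool. The p-values therefore rest on the spread among arrays and could be technical only. The study's stated interest was genes of reactive oxygen species (ROS) metabolism.

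FoxO proteins are transcription factors that insulin and growth factor signalling holds out of the nucleus through AKT. In the nucleus they activate genes of cell cycle arrest, cell death and antioxidant defence, and they are known as regulators of stem cell maintenance in bone marrow. The bulk RNA of a sorted fraction mixes many cells, so fewer cells of a type and less RNA per cell cannot be told apart in any value below.

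Values are given as normalized intensities, the quantile-normalized probe set signal brought back to a linear scale. Log2 changes are FoxO-deficient minus wild type on the scale log2(intensity + 0.6), with standard errors of the limma fit over 12 arrays. The added 0.6 understates the changes of dim probe sets, and noise near background can overstate them. A probe set was called at an adjusted p under 0.05 (limma, Benjamini-Hochberg over all 45037). Mean intensities before normalization were 119 to 190.2. One array differed from the rest, wild-type LSK array 2: the 3' over 5' signal ratio of its Gapdh control probe sets was 344 against 1.77 to 2.37 on the other 11 arrays, and that of Actb was 145 against 2.74 to 3.36. Results are therefore given with and without it. Without it fewer LSK arrays remain, so the averaged effect then gives LSK cells less weight than myeloid progenitors. Background was judged per array by the brightest of 27 bacterial control probe sets, a limit between 5.14 and 13.0. Summed over 8 measured markers, LSK genes read 6133 to 6732 in wild-type and 6332 to 6724 in FoxO-deficient LSK arrays, against 1456 to 1879 in all myeloid progenitor arrays. Within LSK cells these members did not move together. By group mean, wild type then FoxO-deficient, Slamf1 read 117 and 47.1, Meis1 202 and 128, Hlf 1229 and 939 and Mecom 2536 and 2482. Flt3 read 115 and 248, Cd34 1471 and 1896, Kit 331 and 450 and Procr 228 and 276. The 10 myeloid progenitor markers read 3990 to 5343 in all LSK arrays, 13692 to 14682 in wild-type and 15807 to 16669 in FoxO-deficient myeloid progenitors. By group mean, Gata1 read 722 in wild-type and 405 in FoxO-deficient myeloid progenitors, and Klf1 353 and 199. Epor read 62.3 and 34.6, and Csf1r 229 and 144. The other markers of this set were higher in FoxO-deficient myeloid progenitors. Ly6a, which encodes Sca-1, had no probe set with a single symbol.

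Of the 3 targeted genes, Foxo4 fell in both cell types, Foxo1 was lower without passing the test and Foxo3 was not lower. Foxo4 (probe set 1456753_at) read 347, 366 and 479 in wild-type LSK cells against 67.2, 93.8 and 100.2 in FoxO-deficient LSK cells. The wild-type myeloid progenitor arrays read 349.8, 309 and 332 and the FoxO-deficient ones 59.1, 59.3 and 61.3. The genotypes did not overlap in either cell type. Its averaged log2 change was -2.33 ± 0.17 (n = 6 against 6 arrays, adjusted p = 5.22e-04), -2.20 in LSK cells and -2.46 in myeloid progenitors. A second Foxo4 probe set, 1422149_at, changed by -0.053 ± 0.51 (adjusted p = 0.985). It was above background only on 1 FoxO-deficient LSK array. The brightest Foxo1 probe set (1416983_s_at) read 53.8, 265 and 79.5 on the 3 wild-type LSK arrays, and 27.1, 39.2 and 18.9 on the FoxO-deficient ones. For myeloid progenitors the values were 38.7, 23.9 and 14.0 in wild type and 9.99, 15.7 and 12.6 in FoxO deficiency. Array 2 was the highest of all 12 there, and the myeloid progenitor arrays overlapped. The averaged change of Foxo1 was -1.42 ± 0.43 (adjusted p = 0.342), or -1.07 ± 0.30 without array 2 (adjusted p = 0.194). A second Foxo1 probe set, 1416982_at, changed by -1.31 ± 0.25 (adjusted p = 0.125), and its genotypes did not overlap in either cell type. The other 2 Foxo1 probe sets went opposite ways without passing, 1416981_at at -1.21 ± 0.50 and 1456529_at at 0.88 ± 0.52, the latter higher without overlap in LSK cells. Foxo3 (1434831_a_at) read 2480, 2108 and 2715 (wild-type LSK) and 3011, 2672 and 2812 (FoxO-deficient LSK). Its values were 1913, 1837 and 1832 in wild-type and 2263, 2414 and 2574 in FoxO-deficient myeloid progenitors, a difference of 0.30 ± 0.14 (adjusted p = 0.568). Another bright Foxo3 probe set, 1434832_at, changed by 0.69 ± 0.27 (adjusted p = 0.481), or 0.44 ± 0.14 without array 2 (adjusted p = 0.249). It was higher without overlap in myeloid progenitors. The dim Foxo3 probe set 1450236_at changed by 0.032 ± 0.50 (adjusted p = 0.991). The labels do not say which exons were floxed, and a probe outside the deleted part does not report the deletion.

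Averaged over both cell types, 22 of the 45037 probe sets were called, or 0.0488%, with 12 higher (0.0266%) and 10 lower (0.0222%) in FoxO-deficient cells. At an unadjusted p under 0.05 there were 4045, or 8.98%. All 22 called probe sets had no overlap between genotypes in either cell type and the same direction in both. Over all probe sets the share with that pattern was 2.68%, 1.65% higher and 1.03% lower, and 1.78% were apart in opposite directions. The call itself favours probe sets of that pattern, so the 22 are no independent measure of it. Of the 22, 16 carried 1 gene symbol and stood for 15 genes, 2 carried several and 4 carried none. On 17 of them the brighter genotype was above the background limit on all 6 of its arrays, and on 11 all 12 arrays were. The count depends on single arrays: leaving out any array other than array 2 left 10 to 22 calls. It fell to 10 without FoxO-deficient LSK array 5 or FoxO-deficient myeloid progenitor array 12, to 12 without FoxO-deficient LSK array 4, and to 14 without arrays 6, 8, 10 or 11. Without array 2 it rose to 73. The same 9 probe sets were called in all 12 of these fits: those of Foxo4, B3galt6, Gdpd3, Mir1931, Trim34a and Fkbp5, 2 without a symbol (1436061_at and 1445895_at) and 1 with several (1453752_at).

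**Figure D1:**
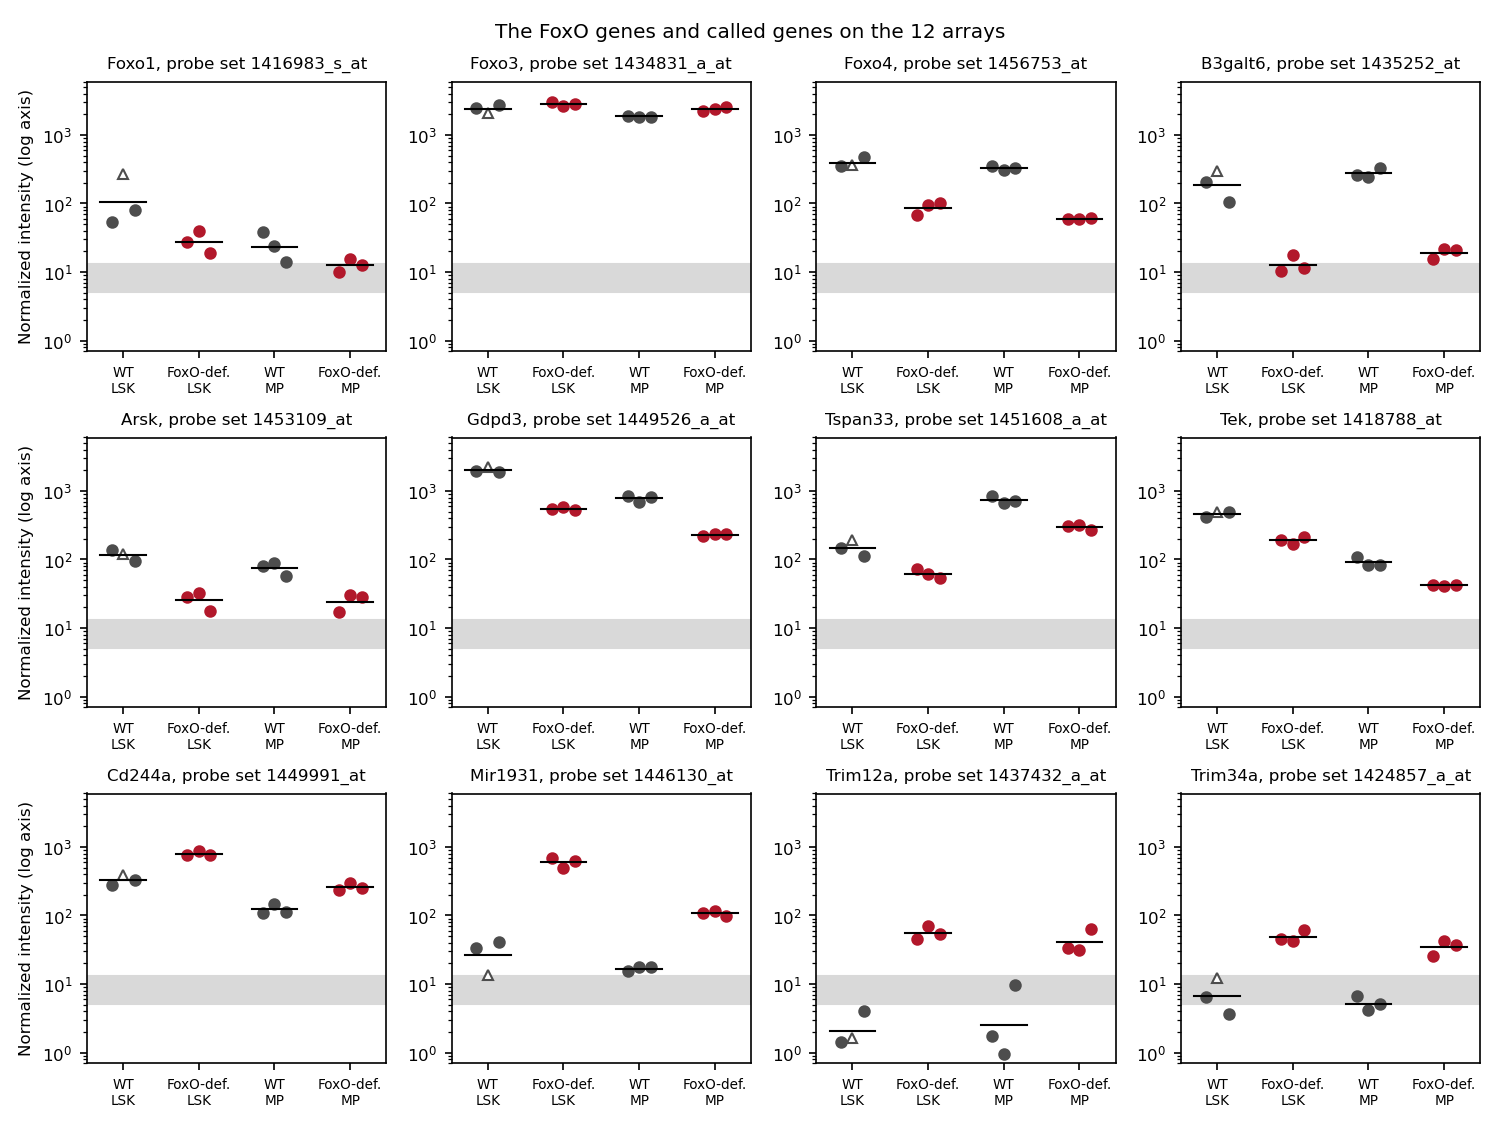
Normalized intensity (log axis) of the 3 targeted FoxO genes and 9 called probe sets on each of the 12 arrays, by group; points are arrays, bars are group means of 3 arrays (taken on the log scale), the open triangle is wild-type LSK array 2, WT is wild type, MP is myeloid progenitors and the grey band spans the background limits of 5.14 to 13.0. Apart from the brightest probe sets of Foxo1 and Foxo3, every panel has the 2 genotypes apart in both cell types.

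Of the called probe sets, that of B3galt6 had the largest fitted fall. The gene encodes a galactosyltransferase that builds the linker of proteoglycan sugar chains. Its probe set 1435252_at read 208, 294 and 106 in LSK cells of wild type and 10.4, 17.5 and 11.6 in those lacking FoxO. Among myeloid progenitors, wild-type arrays read 262, 247 and 326 and FoxO-deficient arrays 15.4, 21.9 and 20.9. The FoxO-deficient arrays of both cell types were at 10.4 to 21.9, near the background limits, and no wild-type array was under 106. The change was -3.86 ± 0.26 (adjusted p = 5.00e-04), -3.86 in LSK cells and -3.85 in myeloid progenitors, a 14.5-fold lower level. The other B3galt6 probe sets did not pass: 1440340_at changed by -0.59 ± 0.20 and 1421155_at by 0.37 ± 0.62. In gene order (RefSeq, GRCm38.p6) B3galt6 lies next to C1qtnf12, a secreted C1q-family protein, with no protein-coding gene between. A C1qtnf12 probe set (1417393_a_at), named here after its values were seen, was called without array 2 (-1.19 ± 0.12, adjusted p = 0.0107) and not with it (-1.38 ± 0.23, adjusted p = 0.0884). It is not the brightest probe set of that gene. C1qtnf12, tested as 1 probe set per gene after the low-signal filter described with the gene lists, was not called.

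Gdpd3, a lysophospholipase D of the glycerophosphodiester phosphodiesterase family, was the brightest called gene. It read 1973, 2201 and 1914 on the wild-type LSK arrays and 536, 579 and 530.3 on the FoxO-deficient LSK arrays. In myeloid progenitors it read 856, 698 and 809.6 on the wild-type arrays and 223, 234 and 238 on the FoxO-deficient arrays. No array of either genotype overlapped the other within a cell type, and the changes in the cell types were close. The change was -1.82 ± 0.14 (adjusted p = 6.48e-04), -1.89 in LSK cells and -1.76 in myeloid progenitors. Arsk, the lysosomal arylsulfatase K, read 138, 119 and 95.9 in wild-type LSK cells against 28.2, 32.7 and 17.5 in FoxO-deficient LSK cells. The wild-type myeloid progenitor arrays read 81.6, 88.4 and 56.6 and the FoxO-deficient ones 16.9, 29.9 and 28.5. Its change was -1.91 ± 0.25 (adjusted p = 0.0229), and it was called in only 3 of the 12 leave-one-out fits. A second Arsk probe set (1453108_at) went the other way, at 0.24 ± 0.43 (adjusted p = 0.899).

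Tek and Tspan33, genes of blood cell identity, were called lower. Tek encodes the angiopoietin receptor Tie2 of hematopoietic stem cells and endothelium. It read 417, 499 and 487 on the 3 wild-type LSK arrays, and 189.8, 169 and 216 on the FoxO-deficient ones. For myeloid progenitors the values were 108, 82.2 and 84.4 in wild type and 42.8, 41.1 and 42.2 in FoxO deficiency. The change was -1.20 ± 0.15 (adjusted p = 0.0199), with -1.29 in LSK cells and -1.11 in myeloid progenitors. Leaving out any single array other than array 2 took this call away, with the direction kept. Tspan33 is a tetraspanin of erythroid progenitors and B cells. Its probe set 1451608_a_at read 145, 194 and 113 (wild-type LSK) and 73.8, 61.9 and 52.9 (FoxO-deficient LSK). Its values were 847, 676 and 724 in wild-type and 306, 323 and 266 in FoxO-deficient myeloid progenitors. The change was -1.28 ± 0.18 (adjusted p = 0.0425). A second probe set, 1455618_x_at, gave -1.27 ± 0.15 (adjusted p = 0.0178), and the other 2, at -0.83 and -1.13, did not pass. The Tspan33 probe sets were called in 2 and 4 of the 12 leave-one-out fits.

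A probe set of Ppp1r3e, a subunit that directs protein phosphatase 1 to glycogen, also fell (1456807_at, -2.90 ± 0.42, adjusted p = 0.0463). The gene's brighter probe set, 1442024_at, changed by -1.11 ± 0.19 (adjusted p = 0.0944). The called probe set of Ddx18, a DEAD-box RNA helicase, exceeded the background limit on at most 2 arrays of a wild-type group and on none of FoxO-deficient cells, and no change is given (adjusted p = 0.0197). The 2 bright Ddx18 probe sets changed by -0.21 and 0.060.

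The genes whose brightest probe set rose were Trim12a, Mir1931 and Cd244a. The probe set annotated to the microRNA gene Mir1931 (1446130_at) read 33.4, 13.5 and 40.4 in LSK cells of wild type and 681, 492 and 632 in those lacking FoxO. Among myeloid progenitors, wild-type arrays read 15.3, 17.6 and 17.8 and FoxO-deficient arrays 109, 116 and 98.0. Every FoxO-deficient array was above every wild-type array, and array 2 was the lowest of all. The change was 3.59 ± 0.37 (adjusted p = 0.00531), 4.50 in LSK cells and 2.67 in myeloid progenitors. The difference between these effects did not pass (adjusted p = 0.301). The array reads a longer transcript there and not the mature microRNA, whose RefSeq sequence (GRCm38.p6, chromosome 10, plus strand, 93162879 to 93162900) is shown because its probe set was called whichever array was left out, with its seed, bases 2 to 8, in capitals.
mmu-miR-1931: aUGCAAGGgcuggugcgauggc

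Cd244a encodes the SLAM-family receptor 2B4 of natural killer cells and of blood progenitors. It read 281, 385 and 324 on the wild-type LSK arrays and 769.6, 872 and 755 on the FoxO-deficient LSK arrays. In myeloid progenitors it read 110.0, 149 and 113 on the wild-type arrays and 235, 301 and 250.1 on the FoxO-deficient arrays. The change was 1.18 ± 0.16 (adjusted p = 0.0383), a 2.27-fold higher level, and was called in 1 of the 12 leave-one-out fits, the one without array 2. The dimmer Cd244a probe set changed by 1.41 ± 0.41 (adjusted p = 0.321). Cd48 encodes the ligand of this receptor and lies 2 protein-coding genes from it. Cd48, named after its values were seen, was called without array 2 (0.74 ± 0.10, adjusted p = 0.0384) and not with it (0.88 ± 0.19, adjusted p = 0.168). It read 278, 147 and 273 in wild-type LSK cells against 439, 407 and 438 in FoxO-deficient LSK cells. The wild-type myeloid progenitor arrays read 340.5, 311 and 356 and the FoxO-deficient ones 570.3, 589 and 616. Array 2 was the lowest of the 12.

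Probe sets of 2 neighbouring tripartite-motif (TRIM) genes rose. TRIM proteins of this kind are ubiquitin ligases, several of them antiviral. The genes follow each other in the order Trim6, Trim34a, Trim5 and Trim12a. Trim12a (1437432_a_at) read 1.41, 1.62 and 4.04 on the 3 wild-type LSK arrays, and 44.9, 70.8 and 52.9 on the FoxO-deficient ones. For myeloid progenitors the values were 1.75, 0.956 and 9.72 in wild type and 33.4, 31.2 and 64.0 in FoxO deficiency. No wild-type array was above its background limit and every FoxO-deficient array was. The level on this probe set was therefore at least 6.63-fold higher in LSK cells and at least 4.04-fold higher in myeloid progenitors. The fitted change was 4.36 ± 0.53 (adjusted p = 0.0178). These bounds set the FoxO-deficient group mean against the mean, over the wild-type arrays, of the higher of the background limit and the measured value. A second Trim12a probe set, 1420648_at, changed by 1.06 ± 0.50 (adjusted p = 0.566) and its genotypes overlapped in both cell types, so the Trim12a probe sets disagree. Trim34a probe set 1424857_a_at read 6.57, 12.1 and 3.66 (wild-type LSK) and 45.2, 42.5 and 60.4 (FoxO-deficient LSK). Its values were 6.73, 4.13 and 5.09 in wild-type and 26.1, 42.4 and 37.4 in FoxO-deficient myeloid progenitors, a change of 2.81 ± 0.29 (adjusted p = 0.00472). No wild-type myeloid progenitor array was above background, and the level there was at least 3.45-fold higher. The gene's much brighter probe set, 1426093_at, changed by 0.31 ± 0.16 (adjusted p = 0.619) and did not pass, so the Trim34a probe sets disagree. The neighbours, named for their place, had changes that did not pass here: 1.72 ± 0.31 for Trim6 (adjusted p = 0.104), 2.71 ± 0.49 for Trim5 (adjusted p = 0.104) and 3.48 ± 0.69 for Trim30d, which lies 7 places on (adjusted p = 0.132). After the low-signal filter described with the gene lists, Trim6 was called higher (adjusted p = 0.0376) and Trim30d was not (adjusted p = 0.0585). Trim5 was also called there (adjusted p = 0.0390). It met the filter's 3 arrays only through FoxO-deficient arrays, where it was high, so no conclusion is drawn from that call. With no wild-type array above background in that cell type, the Trim5 level was at least 3.68-fold higher in LSK cells and that of Trim30d at least 8.51-fold higher in myeloid progenitors. Trim12c and Trim30a, between Trim12a and Trim30d, were at 0.26 and 0.57. Probes that match several of these related genes could share signal.

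The called probe sets of Tia1 and Abce1 rose while brighter probe sets of the same genes did not pass. Tia1 encodes a stress granule protein, Abce1 a ribosome recycling factor and Fkbp5 a co-chaperone of the glucocorticoid receptor. For Tia1 (1431708_a_at) the change was 3.25 ± 0.46 (adjusted p = 0.0425), against 0.39 on its brightest probe set. On the called Tia1 probe set no wild-type LSK array was above background, and its level in LSK cells was at least 3.98-fold higher. For Abce1 (1442071_at) it was 3.68 ± 0.48 (adjusted p = 0.0229), against 0.10. The Abce1 level was at least 1.48-fold higher in LSK cells and at least 2.80-fold higher in myeloid progenitors. A dim Fkbp5 probe set (1447736_at) was called (adjusted p = 0.00472), but no array was above background on it, its highest value was 8.42, and no change is given. The brightest Fkbp5 probe set changed by 0.40 without passing. The probe sets without a symbol that rose included 1436061_at, from at most 6.38 on wild-type arrays to 38.1 to 121 on FoxO-deficient arrays (adjusted p = 0.00472). No wild-type array was above background on it, and its level was at least 10.3-fold higher in LSK cells and at least 5.08-fold higher in myeloid progenitors.

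None of the 22 called probe sets passed the test of the difference between the effects in the 2 cell types (1 mean per group, limma interaction contrast), in which 121 probe sets, or 0.269%, passed. The smallest adjusted p among the 22 was 0.301. The block model by its construction favours probe sets with like effects in both cell types. Among the 13652 genes whose brightest probe set passed a low-signal filter, the correlation between the log2 changes in LSK cells and in myeloid progenitors was 0.058, a description across genes, which are not independent replicates. With 1 mean per group in place of the block, 169 probe sets were called (0.375%), 66 higher (0.147%) and 103 lower (0.229%), and these included all 22. Within that model, 18 probe sets (0.04%) were called in LSK cells alone and 282 (0.626%) in myeloid progenitors alone. Of the 147 additional ones, 58 passed the difference test, 52 of them lower. Their averaged changes combine unequal effects.

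**Figure D2:**
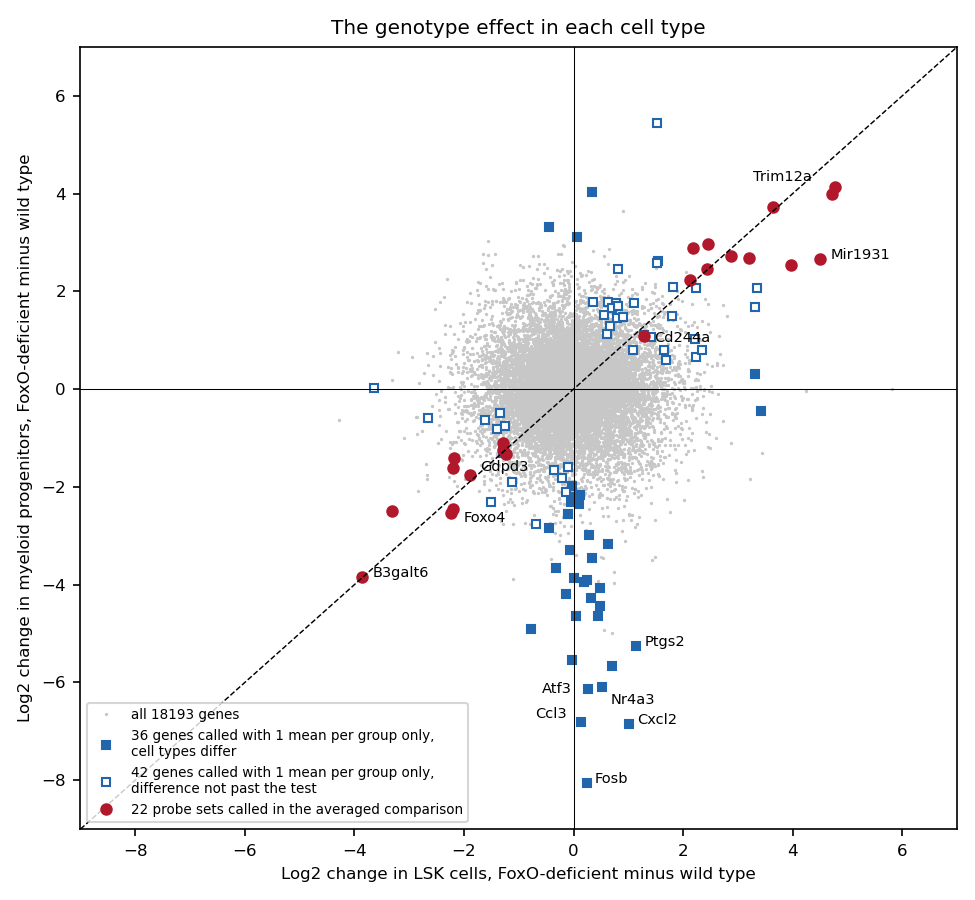
Log2 change in LSK cells (horizontal) against that in myeloid progenitors (vertical), FoxO-deficient minus wild type; grey points are 18193 genes, red circles are the 22 called probe sets, blue squares are genes called only by the model with 1 mean per group, filled where the cell types differed, and the dashed line is equality. The red circles lie along the line of equality, a pattern that the block model favours by its construction. The filled squares lie mostly below 0 in myeloid progenitors and near 0 in LSK cells. For Fosb, Ccl3, Nr4a3, Atf3 and Ptgs2 the vertical position rests on FoxO-deficient values under background and is no measured size.

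The 6 genes with the largest fitted differences of this kind were Fosb, Cxcl2, Ccl3, Nr4a3, Atf3 and Ptgs2. Fosb, Nr4a3 and Atf3 are transcription factors induced within minutes of a stimulus, Cxcl2 and Ccl3 are chemokines, and Ptgs2 is the inducible cyclooxygenase. Fosb read 1816, 1120 and 1743 in LSK cells of wild type and 1677, 1843 and 1892 in those lacking FoxO. Among myeloid progenitors, wild-type arrays read 683, 664 and 644 and FoxO-deficient arrays 1.09, 7.05 and 1.99. Its change was 0.24 in LSK cells, and in myeloid progenitors, where no FoxO-deficient array was above background, its level was at least 71.6-fold lower (adjusted p of the difference = 0.00285). The averaged change did not pass (adjusted p = 0.396), since the block puts the difference between cell types into the error. Cxcl2 read 556, 590.0 and 697 on the wild-type LSK arrays and 1238, 1137 and 1329 on the FoxO-deficient LSK arrays. In myeloid progenitors it read 684, 692 and 727 on the wild-type arrays and 12.0, 4.64 and 3.94 on the FoxO-deficient arrays. Its change was 1.01 in LSK cells and -6.86 in myeloid progenitors (adjusted p of the difference = 3.83e-04). One of its 3 FoxO-deficient myeloid progenitor arrays was above background. For Ccl3, Nr4a3, Atf3 and Ptgs2 none was, so that these 4 and Fosb have no order among them. The levels in myeloid progenitors were at least 48.6-fold lower for Ccl3, at least 27.6-fold for Atf3, at least 15.4-fold for Nr4a3 and at least 14.98-fold for Ptgs2, against changes in LSK cells of 0.14, 0.26, 0.53 and 1.14 on the log2 scale. The related transcription factor genes Fos and Jun, named after their values were seen, were above background on all 12 arrays and changed by -4.64 and -4.64 in myeloid progenitors and by 0.042 and 0.44 in LSK cells.

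Without wild-type LSK array 2, 73 probe sets were called (0.162%), 45 higher (0.0999%) and 28 lower (0.0622%). Of the 22, 21 remained; Tia1 1431708_a_at, with an adjusted p of 0.0519, did not. Of the 52 that were called only then, 34 were higher and 18 lower, and 21 were the brightest probe set of a gene. The standard error was smaller without array 2 for all 52, with a median of 0.16 against 0.29. The 5 such genes with the smallest p were Sgms2, Usp2, Ablim1, Trem3 and Il31. Sgms2, a sphingomyelin synthase, read 23.9, 10.5 and 24.3 in wild-type LSK cells against 53.0, 46.4 and 49.6 in FoxO-deficient LSK cells. The wild-type myeloid progenitor arrays read 278, 302 and 313 and the FoxO-deficient ones 591, 647 and 539. Array 2 was the lowest of its group. Its change was 1.01 ± 0.11 without array 2 (adjusted p = 0.0107) and 1.22 ± 0.23 with it (adjusted p = 0.119). Usp2, a deubiquitinase also counted among the FoxO targets below, read 69.4, 103 and 69.7 on the 3 wild-type LSK arrays, and 155, 139 and 121 on the FoxO-deficient ones. For myeloid progenitors the values were 67.0, 61.6 and 59.4 in wild type and 172, 170.1 and 175 in FoxO deficiency. Here array 2 was the highest wild-type LSK value. The change was 1.25 ± 0.13 without it (adjusted p = 0.0111) and 1.13 ± 0.19 with it (adjusted p = 0.0884). Ablim1, an actin-binding LIM protein, was higher by 1.08 ± 0.13 (adjusted p = 0.0178) and Trem3, a myeloid cell receptor, by 1.18 ± 0.15 (adjusted p = 0.0206) without array 2. Il31, a T cell cytokine, was not above background on any array, so no change is given for it.

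**Figure D3:**
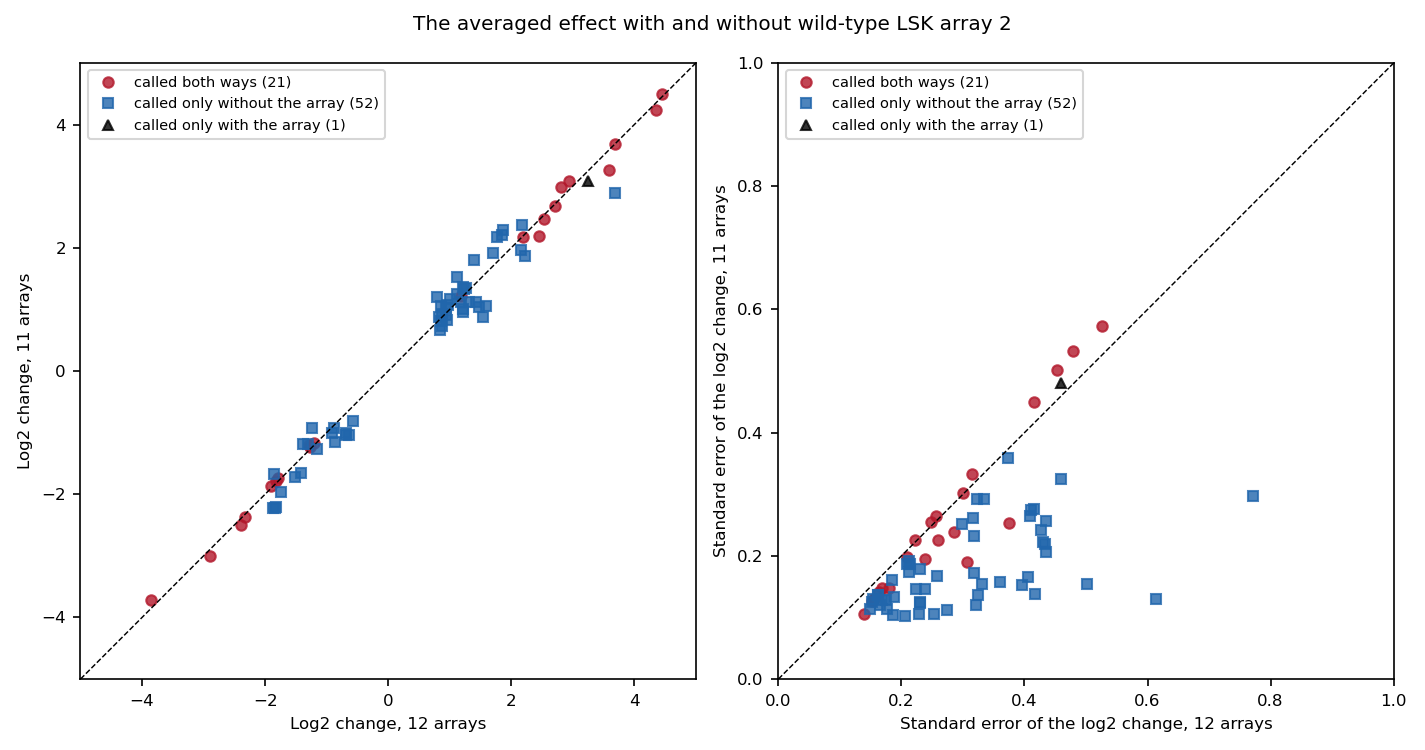
Log2 change (left) and its standard error (right) of the 74 probe sets called with 12 arrays or with the 11 that remain without wild-type LSK array 2; the horizontal axis is the 12-array fit and the vertical axis the 11-array fit. Changes lie near the line of equality, while the 52 probe sets called only without the array have smaller standard errors there.

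**Figure D4:**
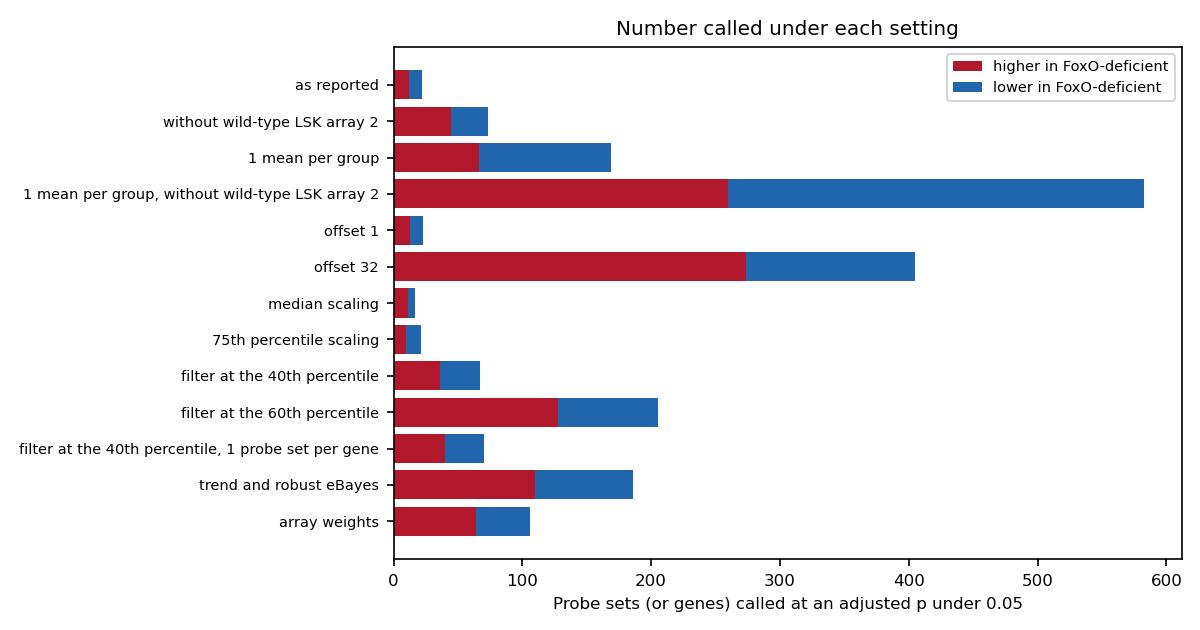
Number of probe sets called at an adjusted p under 0.05 under each setting (of genes, where 1 probe set per gene was tested), split into those higher (red) and lower (blue) in FoxO-deficient cells; the horizontal axis is a count. The reported model calls 22, and the settings shown range from 17 with median scaling to 583 with 1 mean per group and without wild-type LSK array 2.

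Promoters were searched for the core FoxO motif GTAAACA on both strands, from 250 bases before to 50 after each RefSeq gene start (GRCm38.p6). The motif was in 491 of 14452 measured genes with a promoter in the table, or 3.4%. None of the 6 genes called higher and none of the 6 called lower that had a promoter held it. Without array 2 it was in 1 of 24 called higher, Sgms2, and in 1 of 13 called lower, Stk11, where it lay after the gene start. The Sgms2 match starts 87 bases before the gene start. The sequence upstream of Sgms2 (chr3:131490231-131490480, minus strand) is shown with the motif in capitals as the only match upstream of a called gene. A match is a description of the letters and not of binding.
Sgms2 upstream: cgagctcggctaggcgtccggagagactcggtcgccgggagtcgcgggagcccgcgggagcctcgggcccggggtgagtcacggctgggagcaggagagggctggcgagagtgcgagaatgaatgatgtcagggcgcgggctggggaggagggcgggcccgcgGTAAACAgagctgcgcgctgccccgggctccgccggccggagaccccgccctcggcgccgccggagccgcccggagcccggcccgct

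Lists of genes were described by their counts and medians beside all 18193 genes, each gene being its brightest probe set with 1 symbol. Of all genes, 9 were called (0.0495%), 3 higher (0.0165%) and 6 lower (0.033%). At an unadjusted p under 0.05, 4.57% were higher and 4.48% lower, and the median change was -0.0020. Genes without overlap in both cell types made up 2.12% higher and 1.35% lower. Medians are over all measured members.

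**Figure D5:**
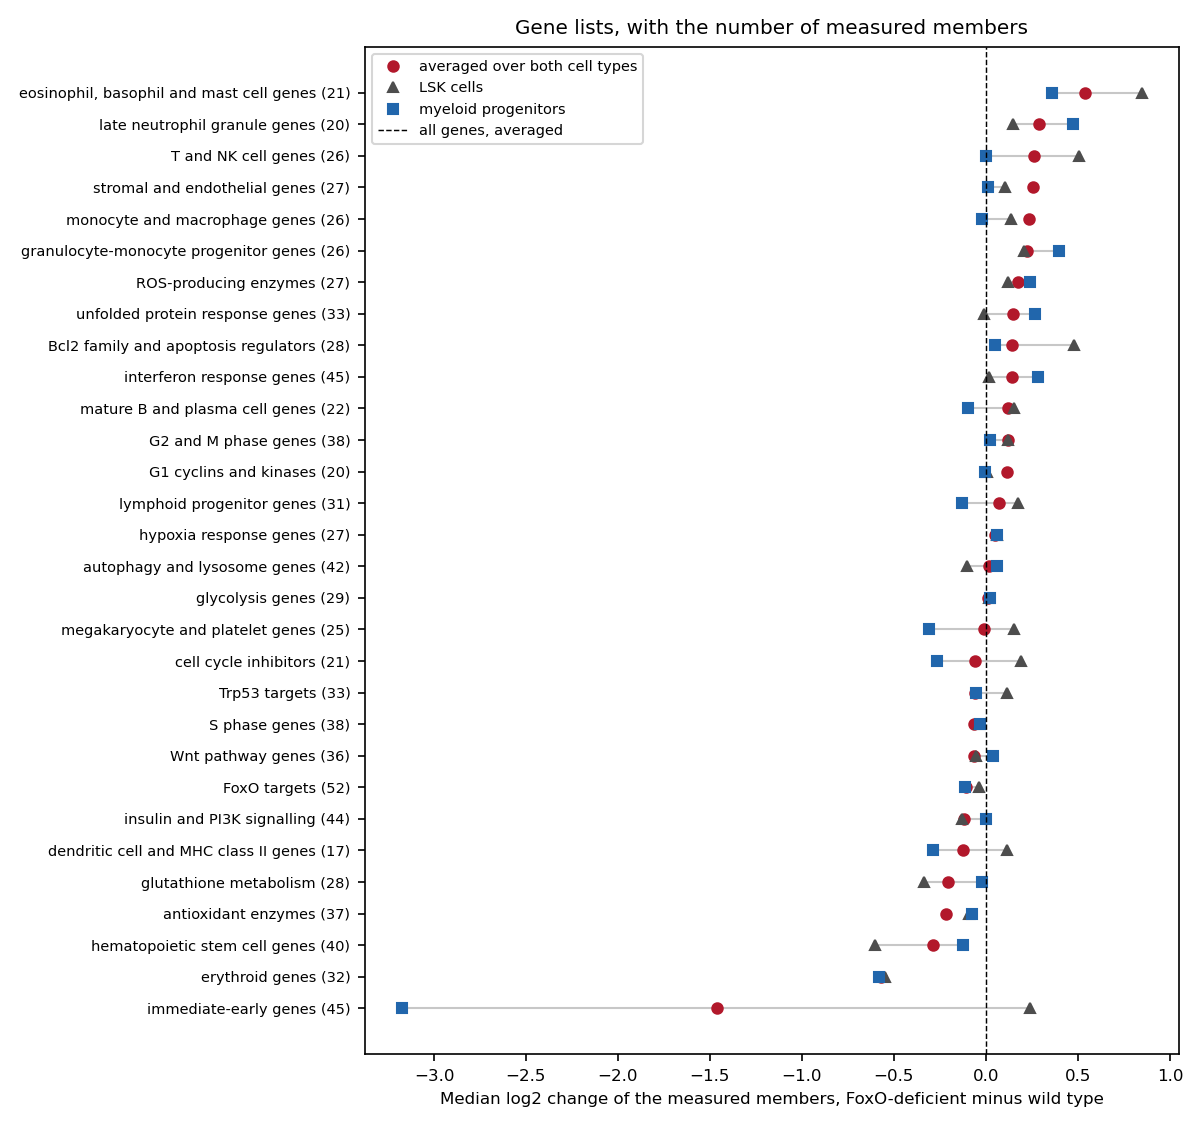
Median log2 change, FoxO-deficient minus wild type, of the measured members of 30 gene lists, averaged over both cell types (circles), in LSK cells (triangles) and in myeloid progenitors (squares); the dashed line is the averaged median of all genes and the number of members is in parentheses. Without array 2 the LSK median of erythroid genes moves from -0.55 to -0.35, beside -0.58 in myeloid progenitors, and that of immediate-early genes from 0.24 to 0.083, beside -3.17.

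Hematopoietic stem cell genes held 1 that fell, Tek. Of 40 measured, 9 were lower and none higher at an unadjusted p under 0.05, 6 were lower without overlap in both cell types, and the median was -0.29, with -0.61 in LSK cells and -0.13 in myeloid progenitors. Without array 2 the median was -0.25, with -0.47 in LSK cells. Esam, an endothelial adhesion molecule that marks stem cells, read 118, 187 and 85.8 (wild-type LSK) and 54.9, 42.2 and 34.7 (FoxO-deficient LSK). Its values were 9.54, 6.99 and 8.45 in wild-type and 4.60, 1.91 and 2.68 in FoxO-deficient myeloid progenitors. Its genotypes did not overlap, 1 of the 6 myeloid progenitor arrays was above background, and the change was -1.52 ± 0.26 (adjusted p = 0.0973). Fgd5, an exchange factor for Cdc42 that marks the same cells, was at -1.80 ± 0.36 (adjusted p = 0.132), the sulfotransferase gene Sult1a1 at -1.03 ± 0.23 (adjusted p = 0.192) and Mllt3, a regulator of stem cell maintenance, at -0.72 ± 0.17 (adjusted p = 0.206). Tested among 13725 genes after a low-signal filter, where 70 were called (0.51%, 40 higher or 0.291% and 30 lower or 0.219%), Tek (adjusted p = 0.00257), Esam (adjusted p = 0.0314) and Mllt3 (adjusted p = 0.0498) were called lower. Endothelial cells also express Tek and Esam, and the 4 markers of stroma and endothelium summed to 39.0 to 44.9 in wild-type and 27.3 to 32.9 in FoxO-deficient LSK arrays. In myeloid progenitors they summed to 20.1 to 24.5 and 16.3 to 35.1. By LSK group mean, wild type then FoxO-deficient, Col1a1 read 23.7 and 8.90 and Kdr 6.11 and 4.97. Cxcl12 read 4.68 and 6.09 there, and Cdh5 4.00 and 7.76, so the members did not move together. The part of these 4 markers in the result was not tested.

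Erythroid genes had medians below 0 in both cell types. Of 32 measured, 1 was called (Tspan33), 15 were lower and none higher at an unadjusted p under 0.05, and 8 were lower without overlap in both cell types. The median was -0.57, with -0.55 in LSK cells and -0.58 in myeloid progenitors, and the difference between the cell types was not tested for the list. Without array 2 it was -0.52, with -0.35 in LSK cells. Rhag, the Rh-associated glycoprotein of the red cell membrane, read 9.05, 7.38 and 4.55 in LSK cells of wild type and 3.45, 2.77 and 2.78 in those lacking FoxO. Among myeloid progenitors, wild-type arrays read 113, 139 and 105 and FoxO-deficient arrays 71.1, 65.0 and 51.6. The change was -1.05 ± 0.20 (adjusted p = 0.127), and only 1 LSK array was above background. Add2, the membrane skeleton protein beta-adducin, was at -1.91 ± 0.34 (adjusted p = 0.0999), carbonic anhydrase Car1 at -0.64 ± 0.16 (adjusted p = 0.255) and the claudin Cldn13 at -0.90 ± 0.24 (adjusted p = 0.279). After the low-signal filter, Tspan33 (adjusted p = 0.00805), Add2 (adjusted p = 0.0376) and Rhag (adjusted p = 0.0376) were called lower. The 3 measured markers of mature erythroid cells summed to 41.5 to 63.5 in wild-type and 13.9 to 17.0 in FoxO-deficient LSK arrays. In myeloid progenitors they summed to 16.7 to 20.8 and 7.31 to 19.5, and 1 of the 3 was above background on no array of any group. By LSK group mean, wild type then FoxO-deficient, Slc4a1 read 45.0 and 11.3. Alas2 read 2.86 and 1.59 there and Hba-a1 1.52 and 1.78, with no LSK array above background for either. The part of these 3 markers in the result was not tested. Megakaryocyte genes, of the sister lineage, had 1 of 25 higher and 3 lower at that p, with none called, and a median of -0.0093, or -0.064 without array 2. The sign of this median changed between alternatives. Mmrn1 was at -0.63 and the thrombin receptor F2r at -0.51.

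Genes of granulocytes and their progenitors held no called gene. Of 26 measured genes of granulocyte-monocyte progenitors, 7 were higher and none lower at an unadjusted p under 0.05, and the median was 0.22, with 9 of the 26 lower in LSK cells and 5 in myeloid progenitors. Elane, the neutrophil elastase, read 111, 68.7 and 115 on the wild-type LSK arrays and 182, 252 and 174 on the FoxO-deficient LSK arrays. In myeloid progenitors it read 2061, 1501 and 1557 on the wild-type arrays and 2423, 2232 and 2160 on the FoxO-deficient arrays. Its change was 0.75 ± 0.21 (adjusted p = 0.318). Cystatin F (Cst7) was at 1.08 ± 0.26 (adjusted p = 0.232), haptoglobin (Hp) at 1.22 ± 0.33 (adjusted p = 0.295) and the granule protein Nkg7 at 0.73 ± 0.26 (adjusted p = 0.429). Of 20 late neutrophil granule genes, 5 were higher and none lower at that p, and the median was 0.29, with 8 of the 20 lower in LSK cells and 2 in myeloid progenitors. Camp, the antimicrobial cathelicidin, read 204, 190.0 and 205 in wild-type LSK cells against 439, 385 and 442 in FoxO-deficient LSK cells. The wild-type myeloid progenitor arrays read 104, 89.6 and 88.7 and the FoxO-deficient ones 199, 149.7 and 148. The change was 0.94 ± 0.15 (adjusted p = 0.0844), and without array 2 it was 0.91 ± 0.13 and called (adjusted p = 0.0407). Ficolin-B (Fcnb) was at 1.45 ± 0.31 (adjusted p = 0.172), annexin A1 (Anxa1) at 0.89 ± 0.26 and the calcium-binding S100a8 at 0.47 ± 0.15. The 5 markers of mature neutrophils summed to 1103 to 1725 in wild-type and 1613 to 1689 in FoxO-deficient LSK arrays. In myeloid progenitors they summed to 461 to 541 and 670.0 to 723. Camp is one of these 5, and their part in the result was not tested.

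Eosinophil, basophil and mast cell genes had the highest median of all lists. Of 21 measured, none was called, 9 were higher and 1 (Gata1) lower at an unadjusted p under 0.05, and the median was 0.54, with 0.85 in LSK cells and 0.36 in myeloid progenitors. Without array 2 the median was 0.79, with 1.28 in LSK cells. Fcer1a, the alpha chain of the high-affinity IgE receptor, read 4.31, 1.62 and 10.1 on the 3 wild-type LSK arrays, and 20.2, 23.6 and 43.4 on the FoxO-deficient ones. For myeloid progenitors the values were 26.9, 24.0 and 25.2 in wild type and 74.5, 84.3 and 92.5 in FoxO deficiency. The genotypes did not overlap within either cell type. The change was 2.23 ± 0.41 (adjusted p = 0.110), and 1.87 ± 0.26 without array 2, when it was called (adjusted p = 0.0392). The basophil protease Mcpt8 read 26.4, 41.7 and 22.9 (wild-type LSK) and 156, 141 and 151 (FoxO-deficient LSK). Its values were 156, 147 and 135 in wild-type and 268, 229.5 and 266 in FoxO-deficient myeloid progenitors. Its change was 1.57 ± 0.29 (adjusted p = 0.112). Prg2, the eosinophil major basic protein, was at 1.17 ± 0.33 (adjusted p = 0.301) and histidine decarboxylase (Hdc) at 1.04 ± 0.32 (adjusted p = 0.347). After the low-signal filter, Fcer1a (adjusted p = 0.0421) and Mcpt8 (adjusted p = 0.0390) were called higher. The 4 basophil and mast cell markers, which hold Fcer1a and Mcpt8, summed to 46.6 to 179 in wild-type and 213 to 257 in FoxO-deficient LSK arrays, and to 347 to 401 and 634 to 658 in myeloid progenitors. Their part in the result was not tested.

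Genes of ROS metabolism, the study's stated interest, held no called gene in any of the 3 lists. Of 37 antioxidant enzymes, 4 were lower and none higher at an unadjusted p under 0.05, and the median was -0.22 with 12 arrays and -0.100 without array 2. These were Mgst3 (-0.58 ± 0.21), selenoprotein P (Selenop, -0.39 ± 0.15), mitochondrial thioredoxin reductase (Txnrd2, -0.86 ± 0.37) and sestrin 1 (Sesn1, -0.36 ± 0.16), with adjusted p from 0.443 to 0.548. Of 28 genes of glutathione metabolism, 5 were lower and none higher at that p, and the median was -0.20, or -0.057 without array 2. Gsta4, a glutathione transferase for lipid peroxidation products, read 188, 384 and 241 in LSK cells of wild type and 137, 144 and 138 in those lacking FoxO. Among myeloid progenitors, wild-type arrays read 217, 193 and 202 and FoxO-deficient arrays 111, 103 and 103. The genotypes did not overlap, and the change was -0.92 ± 0.18 (adjusted p = 0.138). After the low-signal filter, Gsta4 was called lower (adjusted p = 0.0376). The transferases Gstm2 and Gstm5 were at -0.74 ± 0.21 and -0.50 ± 0.14, and the cystine transporter subunit Slc3a2 at -0.70 ± 0.22, with adjusted p from 0.302 to 0.369. Of 27 ROS-producing enzymes, 2 were higher and 2 lower at that p: the NADPH oxidase subunit Ncf4 was at 0.51 ± 0.19, eosinophil peroxidase (Epx) at 1.37 ± 0.52 and the lipoxygenase Alox12 at -1.32 ± 0.44, with adjusted p from 0.395 to 0.463.

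Known FoxO targets held no called gene. Of 52 measured, 4 were higher and 7 lower at an unadjusted p under 0.05, and the median was -0.11, or -0.23 without array 2. The cell cycle inhibitor Cdkn1a was at -1.08 ± 0.31 (adjusted p = 0.313), with -0.38 in LSK cells and -1.77 in myeloid progenitors. Klf2, a transcription factor of quiescence, was at -1.54 ± 0.50 and the repressor Bcl6 at 0.60 ± 0.18, with adjusted p of 0.377 and 0.323. Usp2 was the member with the smallest p, in the higher direction, as given above. Of 28 Bcl2 family and apoptosis regulators, 5 were higher and 2 lower at that p, with none called and a median of 0.14, or 0.25 without array 2. Bcl2l11, the death-promoting BH3-only protein Bim, read 338, 104 and 333 on the wild-type LSK arrays and 1106, 1039 and 1062 on the FoxO-deficient LSK arrays. In myeloid progenitors it read 286, 266 and 288 on the wild-type arrays and 341, 314 and 311 on the FoxO-deficient arrays. The genotypes did not overlap in either cell type, but the change was 2.24 in LSK cells and 0.20 in myeloid progenitors, and the average of 1.22 ± 0.41 did not pass (adjusted p = 0.401). The caspase inhibitor Xiap was at 0.58 ± 0.15, Casp8 at 0.47 ± 0.17 and the survival factor Bcl2l1 at -0.57 ± 0.23, with adjusted p from 0.273 to 0.479.

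Interferon response genes had 11 of 45 higher and none lower at an unadjusted p under 0.05, with none called and a median of 0.14. The median was 0.016 in LSK cells, where 21 of the 45 were lower, and 0.28 in myeloid progenitors, where 10 were. Mx-Cre is itself driven by an interferon-responsive promoter and is present only in the FoxO-deficient groups. Any part of the transgene in these values was not tested and cannot be told apart from loss of the FoxO genes. The ubiquitin ligase Trim21 read 341, 443 and 403 in wild-type LSK cells against 498, 524 and 479.9 in FoxO-deficient LSK cells. The wild-type myeloid progenitor arrays read 194, 179 and 204 and the FoxO-deficient ones 648, 657 and 671. Its change was 1.06 ± 0.26 (adjusted p = 0.241), with 0.35 in LSK cells and 1.78 in myeloid progenitors. Trim25, an activator of RNA sensing, was at 0.55 ± 0.15, the nuclear sensor Ifi204 at 0.77 ± 0.21 and the antiviral Mx1 at 1.35 ± 0.41, with adjusted p from 0.284 to 0.342.

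Immediate-early and stress-induced genes had 27 of 45 lower and none higher at an unadjusted p under 0.05, and none was called. The averaged median was -1.46, with 0.24 in LSK cells and -3.17 in myeloid progenitors. Without array 2 the averaged median was -1.71 and that in LSK cells 0.083. The average without array 2 gives myeloid progenitors more weight than LSK cells, so the 2 averaged medians are not fully comparable. The effect differed between cell types for 27 of the 45 genes (against 0.33% of all genes), and 22 of those were among the 27 with a low averaged p. With 1 mean per group, 23 were called lower. The 4 with the smallest averaged p were the heat-shock genes Hspa1b (-1.65 ± 0.39), Hspa1a (-2.49 ± 0.66) and Dnajb1 (-0.64 ± 0.19) and the cytokine signalling inhibitor Socs3 (-2.84 ± 0.69), with adjusted p from 0.232 to 0.323. Hspa1b read 1668, 2284 and 1695 on the 3 wild-type LSK arrays, and 1503, 1285 and 1334 on the FoxO-deficient ones. For myeloid progenitors the values were 2326, 2409 and 2576 in wild type and 338, 328 and 349 in FoxO deficiency. The change was -0.44 in LSK cells and -2.85 in myeloid progenitors, without overlap in either (adjusted p of the difference = 0.0101).

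Cell cycle lists held no called gene. At an unadjusted p under 0.05, S phase genes had 2 of 38 lower, G2 and M phase genes 1 of 38 higher, cell cycle inhibitors 1 of 21 in each direction, and G1 cyclins and kinases 2 of 20 higher and 4 lower. The mitotic kinase Aurka was at 0.50 ± 0.18 and cyclin E1 (Ccne1) at -0.70 ± 0.17. Of the 38 G2 and M phase genes, 4 were higher without overlap in both cell types. The pocket protein Rbl1 was at 0.49 ± 0.14, the transcription factors E2f1 and E2f4 at -0.45 ± 0.18 and -0.59 ± 0.22, and Cdk6 at 0.49 ± 0.15. Adjusted p for these 6 ran from 0.255 to 0.474.

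The other lists held no called gene. Unfolded protein response genes had 5 of 33 higher and 3 lower at an unadjusted p under 0.05, among them the chaperone cofactor Sdf2l1 at 0.99 ± 0.26, Edem1, which feeds misfolded proteins to degradation, at 0.54 ± 0.16, and the stress-induced Ppp1r15a at -1.95 ± 0.57 and Ddit3 at -0.69 ± 0.21. Autophagy and lysosome genes had 6 of 42 lower and none higher. The autophagy receptor Sqstm1 was at -1.99 ± 0.52, the protease Atg4b at -0.93 ± 0.28, cathepsin L (Ctsl) at -0.45 ± 0.14 and the kinase Ulk1 at -0.46 ± 0.18. Glycolysis genes had 4 of 29 higher and 2 lower, with Pfkfb4 at 0.99 ± 0.26, Pfkfb3 at 0.55 ± 0.18, pyruvate kinase Pklr at -1.09 ± 0.31 and lactate dehydrogenase Ldhb at -0.81 ± 0.28. Hypoxia response genes had 2 of 27 higher and 1 lower, with Hif1a at 0.39 ± 0.15 and hexokinase Hk2 at 0.87 ± 0.33. Insulin and PI3K signalling genes had 1 of 44 higher, the regulatory subunit Pik3r1 at 0.55 ± 0.21, and 2 lower, including the catalytic subunit Pik3cd at -0.62 ± 0.24. Monocyte and macrophage genes had 3 of 26 higher and 2 lower. Among them the chemokine receptor Ccr2 was at -1.62 ± 0.35 (adjusted p = 0.178), with -2.65 in LSK cells and -0.59 in myeloid progenitors. Lymphoid progenitor genes had 2 of 31 higher and 3 lower, T and NK cell genes 3 of 26 higher and none lower, mature B and plasma cell genes 2 of 22 higher and 1 lower, and Trp53 targets 1 of 33 higher and 4 lower. Stromal and endothelial genes had 2 of 27 higher and 3 lower, Wnt pathway genes 3 of 36 lower and none higher, and dendritic cell genes none of 17 either way.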

How the data were processed

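RNA of sorted cells was amplified with the NuGEN Ovation system and hybridised to 12 Affymetrix mouse arrays (type 430 2.0), per the labels' protocols. The authors deposited 1 linear intensity per probe set. How they summarised probes is not given in the sources used. The array medians of these deposited intensity values ran from 8 to 13.5.

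The offset of 0.6, the 10th percentile of all values, was added, log2 was taken and the arrays were quantile normalized over 45101 probe sets. The 64 control probe sets were left out of the tests. The model, fitted with limma 3.58.1 in R 4.3.3 (lmFit, eBayes), held cell type and genotype (9 residual degrees of freedom). All p-values are two-sided and were adjusted by Benjamini and Hochberg's method over 45037 probe sets. Differences between cell types came from a fit with 1 mean per group (8 residual degrees of freedom). Simulated data gave back 27 of 100 probe sets changed by 1 on the log2 scale and 52 of 100 changed by 2 in this comparison over 45037 probe sets, with 3 unchanged ones called. The changed ones were drawn from probe sets passing the low-signal filter, with the same change in both cell types and normally distributed noise. Recovery of dimmer probe sets and of unequal effects was not measured. The low-signal filter kept probe sets above the 40th percentile of their array on at least 3 arrays. Precision is limited by having 3 arrays per group.

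Of the tested probe sets, 34945 carried 1 symbol, 932 several and 9160 none in the platform annotation, and 34741 symbols were updated through a RefSeq gene table (GRCm38.p6). A gene is its brightest probe set with 1 symbol. Named genes are the targeted genes; called genes with no overlap in both cell types and bright in all 6 arrays of the brighter genotype, which gave 9; list members by p (at most 6 called and 4 others); the 6 genes with the largest difference between cell types; and the 5 that wild-type LSK array 2 decided. The other called probe sets were named after their values were seen. The members and gene lists were chosen with earlier results of these data known. No 2 arrays were copies: at most 1.55% of values were equal on a pair. Alternatives were other offsets, scalings, filters, models and leaving out each array.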

Additional observations from a re-analysis of the deposited data

Results flagged for a closer look

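The effect of FoxO deficiency differed between the cell types for 11 of 119 named probe sets (limma interaction contrast, Benjamini-Hochberg over 45037 probe sets). Over all probe sets 121 passed this test, or 0.269%. The 119 leave out Fos and Jun, which were named after their values were seen. Both passed as well, with fitted differences of -4.68 and -5.08 (adjusted p = 3.83e-04 and 4.96e-04). The fitted difference, myeloid progenitors minus LSK cells on the log2 scale, was -8.30 for Fosb (adjusted p = 0.00285), -7.87 for Cxcl2 (adjusted p = 3.83e-04), -6.95 for Ccl3 (adjusted p = 3.83e-04), -6.62 for Nr4a3 (adjusted p = 0.00980), -6.40 for Atf3 (adjusted p = 0.00647) and -6.39 for Ptgs2 (adjusted p = 0.00559). It was -4.13 for the signalling inhibitor Socs3 (adjusted p = 0.0353), -3.80 for the antiproliferative Btg2 (adjusted p = 0.00647), -3.33 for Sqstm1 (adjusted p = 0.00285), -3.26 for the lipopolysaccharide receptor Cd14 (adjusted p = 0.00828) and -2.41 for Hspa1b (adjusted p = 0.0101). No FoxO-deficient myeloid progenitor array was above background for Fosb, Ccl3, Nr4a3, Atf3 and Ptgs2, so their fitted differences are no measured sizes and have no order. Their levels in myeloid progenitors were at least 71.6-fold, 48.6-fold, 15.4-fold, 27.6-fold and 14.98-fold lower, in that order. For Cxcl2 and Socs3, 1 of the 3 arrays was above background. All 11 differences were negative, and the 3 FoxO-deficient myeloid progenitor arrays were below the 3 wild-type ones for each. Fosb, Cxcl2, Ccl3, Nr4a3, Atf3 and Ptgs2 had been named for the size of their difference. The count of 11 and the shared direction are therefore no independent result. An averaged change of these genes is therefore a mean of unequal effects.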

How the results depend on the processing

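The 22 called probe sets kept their direction in all 486 fits in which they were tested under the 23 alternatives, and in 124 of these they were no longer called. The numbers called moved far more. In the order called, higher, lower, without overlap in both cell types, and passing the difference test, the counts of 22, 12, 10, 22 and 121 became 405, 274, 131, 375 and 526 with an offset of 32. They became 67, 36, 31, 67 and 187 with the filter at the 40th percentile, and 205, 128, 77, 198 and 385 at the 60th. With trend and robust moderation they became 186, 110, 76, 176 and 293, and with array weights 106, 64, 42, 92 and 268. With 1 probe set per gene after the filter, 70, 40, 30 and 67 genes were called, higher, lower and without overlap. The fit with 1 mean per group gave 169, 66, 103 and 92, and without array 2 it gave 583, 260, 323, 395 and 306. Median scaling called 17, with 11 higher and 6 lower (64.7% higher against 54.5%), and scaling to the 75th percentile shifted the median of all probe sets to -0.070 and called 21, with 10 higher and 11 lower. Without each array in turn, counts ran from 10 to 73 called, 6 to 45 higher, 3 to 28 lower, 10 to 73 without overlap and 60 to 306 passing the difference test; the highest values are those without wild-type LSK array 2. Filters test fewer probe sets; for the other changes the cause was not tested. No paired analysis was possible because the array numbers run from 1 to 12 and no number is shared between groups. The depth of array data is its signal over background: 48.1% to 68.5% of probe sets were above the limit on an array.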
